A study of Drosophila melanogaster with 21 samples.

Results

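Depletion of Fl2d was compared with depletion of YT521 in S2R+ cells, a blood cell-like line derived from Drosophila melanogaster embryos. The 6 libraries were those titled Fl2d or YT521, 3 of each, out of 21 libraries in 7 groups of poly(A) RNA. In one group the cells were depleted for Fl2d and in the other for YT521. The 3 Control libraries are given beside them, and all cells were kept under standard culture at room temperature. The labels name no agent for the depletion and no further allele or treatment, and each group is a single line rather than a tissue. N6-methyladenosine (m6A) is written into nascent mRNA by a complex around the methyltransferases Mettl3 and Mettl14, and Fl(2)d, the fly counterpart of WTAP, is a subunit of that complex that also takes part in alternative splicing, Sex-lethal among its known targets. YT521-B, the product of Ythdc1, is the nuclear protein that binds m6A and acts in splicing. The series title names this reader in neurogenesis and sex determination, so the comparison asks which transcripts separate loss of the writer subunit from loss of the reader.

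Each library held 20214568 to 28296393 gene counts, and expression is given as CPM, the counts-per-million of the scaled library. Fl2d replicate 1 and YT521 replicate 2 stood apart, with 1.93% and 2.89% of counts in the mitochondrial large ribosomal RNA against 6.58% to 8.62% in the other 7 libraries of these groups and the control. Most of the counts below are therefore also given without both of them. Markers of the line varied in level. The blood cell GATA factor srp was present in every library, at 79.2 to 84.8 CPM in the Fl2d and 79.6 to 93.1 CPM in the YT521 libraries. Lamellocyte markers were mixed. The marker atilla had 0 counts in all 9 libraries, while PPO3 lay at 61.3 to 81.3 CPM in the Fl2d libraries. Its levels were 75.2 to 84.1 CPM in the YT521 and 76.5 to 83.9 CPM in the Control libraries. Some plasmatocyte markers were near the floor: the receptor NimC1 stayed at or under 0.503 CPM and eater at or under 0.854 CPM. The marker gcm stayed at or under 0.0885 CPM, with 0 counts in 2 of the 9 libraries. In bulk RNA, fewer cells of a type and less RNA per cell cannot be told apart. Separate cultures are not named for the replicates in the labels, so the spread between libraries may be technical. The p-values rest on a spread estimated over all 21 libraries, not on that of the Fl2d and YT521 libraries alone.

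The targeted transcripts followed the labels. The fl(2)d transcript (2R, 13819624 to 13824553 in BDGP6.54) lay at 18.1, 23.4 and 23.6 CPM in the Fl2d libraries and at 153, 141 and 158 CPM in the YT521 libraries. All 3 Fl2d libraries lay far below the lowest YT521 library, and the Fl2d mean was 17.3% of the control mean of 125 ± 1.55 CPM (SD, n = 3). The difference was -2.79 on the log2 scale (SE 0.073, adjusted p = 3.35e-17). Ythdc1 (3L, 3370451 to 3374170) showed the opposite order, with 568, 474 and 480 CPM in the Fl2d libraries and 104, 78.3 and 77.9 CPM in the YT521 libraries. Its YT521 mean was 22.2% of the control mean of 391 ± 15 CPM (SD, n = 3), and the difference was 2.55 (SE 0.085, adjusted p = 2.48e-15). Each depletion also had a higher level of the other target than the control: Ythdc1 by 0.38 in Fl2d depletion (adjusted p = 0.000707) and fl(2)d by 0.27 in YT521 depletion (adjusted p = 0.0139). The higher fl(2)d level was not particular to YT521 depletion, where its mean was 151 CPM. Its mean was 180 CPM in the libraries titled Ime4 (Mettl3), 178 in CG7818 (Mettl14), 176 in the double depletion and 117 in CG6422 (Ythdf).

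Mettl3, the catalytic methyltransferase, lay at 75.4, 70.4 and 71 CPM in the Fl2d and 66.8, 67 and 61.9 CPM in the YT521 libraries, a difference of 0.15 that did not pass the test (adjusted p = 0.321). Its partner Mettl14 differed by 0.10 (adjusted p = 0.353). Ythdf, the cytoplasmic reader, was lower in Fl2d depletion, at 80.4, 84.4 and 71.4 CPM against 102, 97.9 and 99.5 CPM, a difference of -0.34 (adjusted p = 0.0193). The groups did not overlap, but the call was lost without Fl2d replicate 3 (adjusted p = 0.0757) or without YT521 replicate 1 (adjusted p = 0.0505). Among the 9 genes of the writer complex and readers, 2 were higher and 2 lower in Fl2d depletion, both targets and Ythdf included (1 and 3 without both libraries low in mitochondrial rRNA). The 4th was vir, the fly virilizer, higher by 0.24 (adjusted p = 0.00996, range over the alternatives up to 0.0765).

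Across the transcriptome, the direct comparison called 3263 of 8360 genes tested, or 39.0%, at an adjusted p under 0.05. Of these, 1686 (20.2% of genes tested) were higher and 1577 (18.9%) lower in Fl2d depletion. The differences were mostly small: the median size over called genes was 0.331 on the log2 scale, 300 genes (3.59%) reached 2-fold and 35 reached 4-fold. Against the control, Fl2d depletion had 3451 called genes (41.3%) and YT521 depletion 545 (6.52%). The YT521 count fell to 243 without Control replicate 2, 295 without YT521 replicate 1, 321 without Control replicate 3 and 328 without YT521 replicate 2. These control comparisons share the 3 Control libraries. Among the 135 genes at least 2-fold higher in Fl2d depletion, the control mean lay nearer to the YT521 mean for 121, and among the 165 at least 2-fold lower it did so for 136. Without both libraries low in mitochondrial rRNA, 1288 genes were higher and 1369 lower, of which 1201 and 1213 were also called with all libraries. A fit of both groups alone, which used only their own spread, called 1881 of 8124 genes.

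The highest genes in Fl2d depletion were a mixed set of secreted, metabolic and unnamed products. These genes and the lowest ones below were picked from called genes whose Fl2d and YT521 libraries did not overlap. This held for 2870 of the 3263 called genes, so the lack of overlap was given by the choice. The share without overlap over all genes tested is not given here. Mettl3 and Mettl14 also had no overlap between these groups though they were not called, so a lack of overlap alone says little. CG15784, an intronless gene on the X chromosome (5429571 to 5432526), was the highest, at 3755, 3743 and 3355 CPM in the Fl2d libraries and 482, 548 and 464 CPM in the YT521 libraries. The Fl2d libraries all lay far above the YT521 libraries, a 7.26-fold ratio of means, and the difference was 2.86 (SE 0.107, adjusted p = 1.93e-14). It was also above the control mean of 311 ± 52.2 CPM (SD, n = 3) in YT521 depletion, by 0.68 (adjusted p = 0.000252). AdamTS-B, a secreted metalloprotease of the ADAMTS family, lay at 31.2, 22.9 and 25.6 CPM against 5.02, 6.52 and 5.74 CPM, a difference of 2.20 (adjusted p = 1.07e-11). Its YT521 libraries lay close to the control mean of 7.08 CPM, and that difference did not pass the test (adjusted p = 0.217).

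The other genes of this set were expressed at a few CPM. The cytochrome P450 gene Cyp6d2 lay at 3.3, 3.36 and 3.22 CPM in the Fl2d and 1.02, 1.01 and 0.646 CPM in the YT521 libraries (difference 1.88, adjusted p = 1.25e-06). RpS5b, the germline-enriched paralog of ribosomal protein S5, lay at 4.97, 3.6 and 3.67 CPM against 0.776, 1.45 and 1.18 CPM (difference 1.83, adjusted p = 2.09e-07). Reads that align equally to RpS5b and its near copy RpS5a were left out of the gene counts, so its level may be understated. The set was completed by CG33127 (2.00), the gene FBgn0040813 without an entry in the annotation (1.71), ninaG (1.71), an oxidoreductase needed for the rhodopsin chromophore, and CG10062 (1.67). The non-coding gene lncRNA:CR43963 differed by 2.79, but its Fl2d libraries were uneven at 1.15, 6.68 and 6.08 CPM, the first close to the highest YT521 library at 0.933 CPM.

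**Figure D1:**
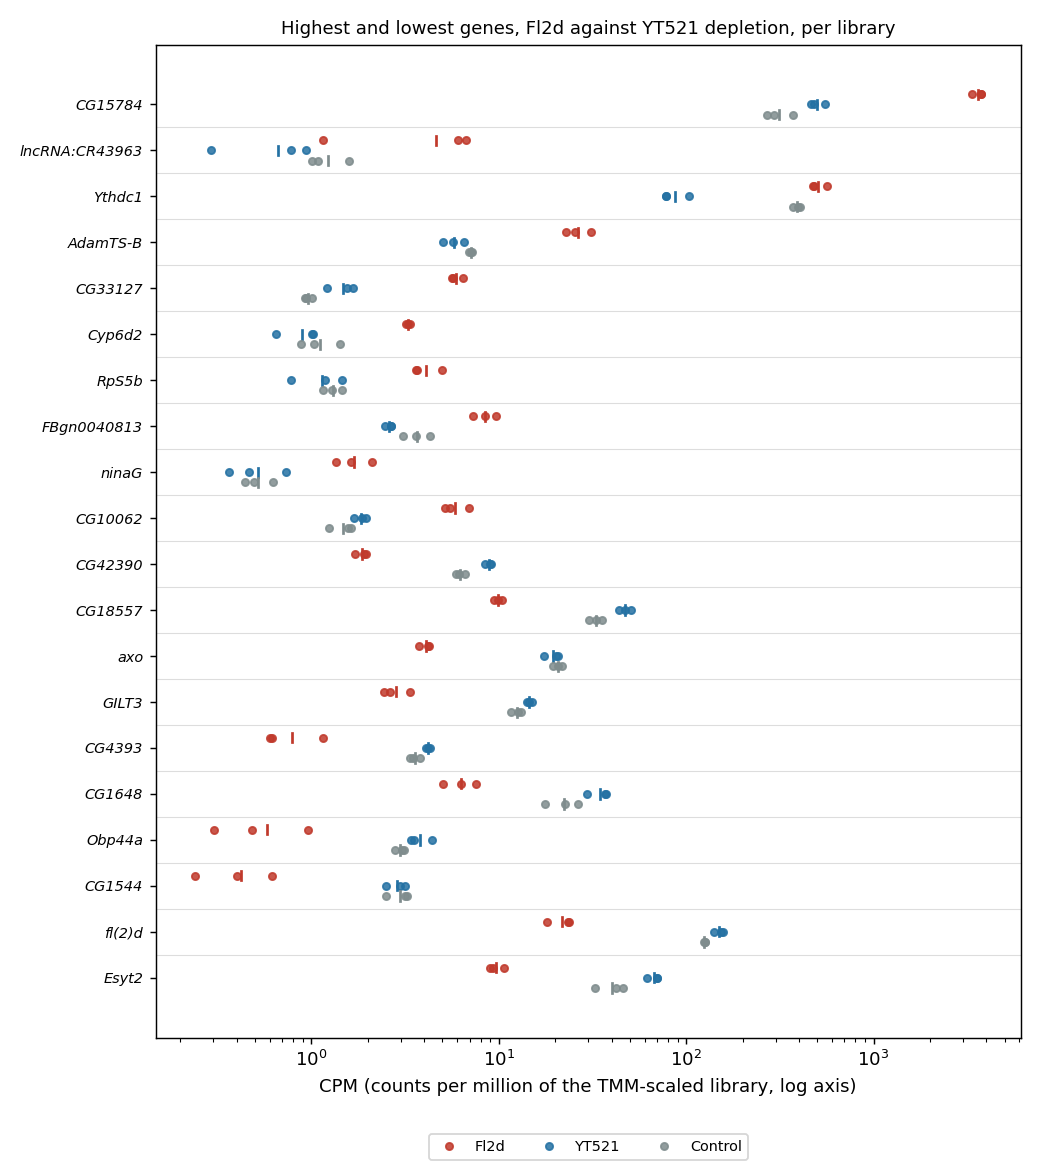
Levels of the 10 highest and 10 lowest genes of the direct comparison, in CPM on a log axis, with 1 point per library for Fl2d depletion, YT521 depletion and the control and a bar at each group mean. In most of the genes the control points lie with or near the YT521 points, CG15784 has Fl2d libraries from 3355 to 3755 CPM, and Esyt2 has YT521 libraries above all controls.

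The lowest genes in Fl2d depletion included several that were above the control in YT521 depletion. Esyt2 (3R, 24544719 to 24556549), an extended synaptotagmin that tethers the endoplasmic reticulum to the plasma membrane, lay at 9.32, 8.98 and 10.7 CPM in the Fl2d libraries and 69.8, 61.8 and 69.7 CPM in the YT521 libraries. The control mean of 40.2 ± 6.86 CPM (SD, n = 3) lay between the groups. The direct difference was -2.80 (SE 0.129, adjusted p = 1.03e-12), made up of -2.07 in Fl2d depletion (adjusted p = 1.24e-10) and 0.73 in YT521 depletion (adjusted p = 0.000252), both against the control. CG1648 showed the same order, at 5.07, 7.59 and 6.33 CPM against 37.6, 36.8 and 29.5 CPM with a control mean of 22.3 ± 4.39 CPM (SD, n = 3). Its differences from the control were -1.80 (adjusted p = 8.34e-08) in Fl2d and 0.65 (adjusted p = 0.0079) in YT521 depletion. CG18557 (-2.25) and CG42390 (-2.24) also had control means between the groups and were above the control in YT521 depletion by 0.51 each (adjusted p = 0.00612 and 0.00595).

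In the remaining lowest genes the YT521 libraries did not differ detectably from the control. GILT3, of the lysosomal thiol reductase family, lay at 2.63, 2.45 and 3.37 CPM in the Fl2d and 14.1, 15 and 14.6 CPM in the YT521 libraries, with a difference of -2.38 (SE 0.113, adjusted p = 1.65e-12). The gene axo, which encodes axotactin, a neurexin-related protein of glia, lay at 3.78, 4.18 and 4.27 CPM against 17.5, 20.3 and 20.6 CPM (difference -2.26, adjusted p = 2.93e-12). Its control mean was 20.7 ± 1.13 CPM (SD, n = 3). Both genes had Fl2d libraries far below all YT521 libraries. CG1544 (-2.76), the odorant-binding protein gene Obp44a (-2.69) and CG4393 (-2.39) had Fl2d levels of 0.24 to 1.15 CPM and YT521 levels of 2.49 to 4.42 CPM.

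A smaller set of genes departed from the control with loss of the reader. Maelstrom (mael), a piRNA pathway gene, lay at 40.5, 43.4 and 42.3 CPM in the YT521 libraries and 63.7, 65.8 and 71.3 CPM in the Fl2d libraries, where the control had 67.4 ± 2.65 CPM (SD, n = 3). Its Fl2d libraries lay around the control and its YT521 libraries below both, with a direct difference of 0.67 (SE 0.049, adjusted p = 7.52e-10) and -0.68 against the control in YT521 depletion (adjusted p = 6.11e-09). The TNF ligand eiger (egr) had the same order, at 71.6, 71.6 and 78.2 CPM in YT521 and 102, 101 and 124 CPM in Fl2d depletion, a direct difference of 0.56 (adjusted p = 1.84e-06). A low egr level was not particular to YT521 depletion. Against a control mean of 102 CPM, means were 84.6 CPM in the Ime4, 83.8 in the double and 78.6 in the CG6422 depletion, but 103 in the CG7818 depletion. CG12947 lay at 1.92, 2.32 and 2.44 CPM in YT521 and 5.07, 4.85 and 4.07 CPM in Fl2d depletion (direct difference 1.06, adjusted p = 1.12e-05).

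Other genes were high in the YT521 libraries alone of the 3 groups. Tusp, a Tubby-superfamily gene, lay at 8.12, 10.8 and 8.61 CPM in YT521 and 2.63, 4.61 and 3.02 CPM in Fl2d depletion, with a control mean of 4.16 ± 0.98 CPM (SD, n = 3). All YT521 libraries lay above all Fl2d libraries, and the gene was above the control by 1.17 in YT521 depletion (adjusted p = 0.000336), while the Fl2d difference of -0.25 did not pass the test (adjusted p = 0.361). CG4269 lay at 2.9, 3.08 and 2.83 CPM in YT521 and 1.19, 1.54 and 1.36 CPM in Fl2d depletion (direct difference -1.11, adjusted p = 0.000204). The gene lncRNA:CR45138 had the same order with levels of 0.577 to 2.29 CPM (direct difference -1.34, adjusted p = 0.000474), and neurotactin (Nrt), an adhesion receptor, was above the control by 0.64 in YT521 depletion (adjusted p = 0.000215) and not detectably different in Fl2d depletion (-0.10, adjusted p = 0.461).

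A further group moved in opposite directions from the control or more strongly with Fl2d. The serine protease homolog SPH93 lay at 0.765, 0.721 and 0.704 CPM in Fl2d and 2.65, 3.91 and 3.09 CPM in YT521 depletion, on either side of the control mean of 1.48 ± 0.42 CPM (SD, n = 3). RpS19b, a paralog of ribosomal protein S19, was high in Fl2d depletion at 137, 156 and 131 CPM and low in YT521 depletion at 67.8, 65.3 and 58.6 CPM, and both differences from the control passed the test (0.60 and -0.54). CG2961 was above the control in both depletions, by 1.94 with Fl2d and 1.29 with YT521, and lncRNA:CR45517 was below it in both, by -2.13 and -0.98. The lowest genes of YT521 depletion also included lncRNA:CR45994 (-1.34 against the control) and mir-2493 (-0.93), both at 1.86 CPM or less in every Fl2d and YT521 library.

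**Figure D2:**
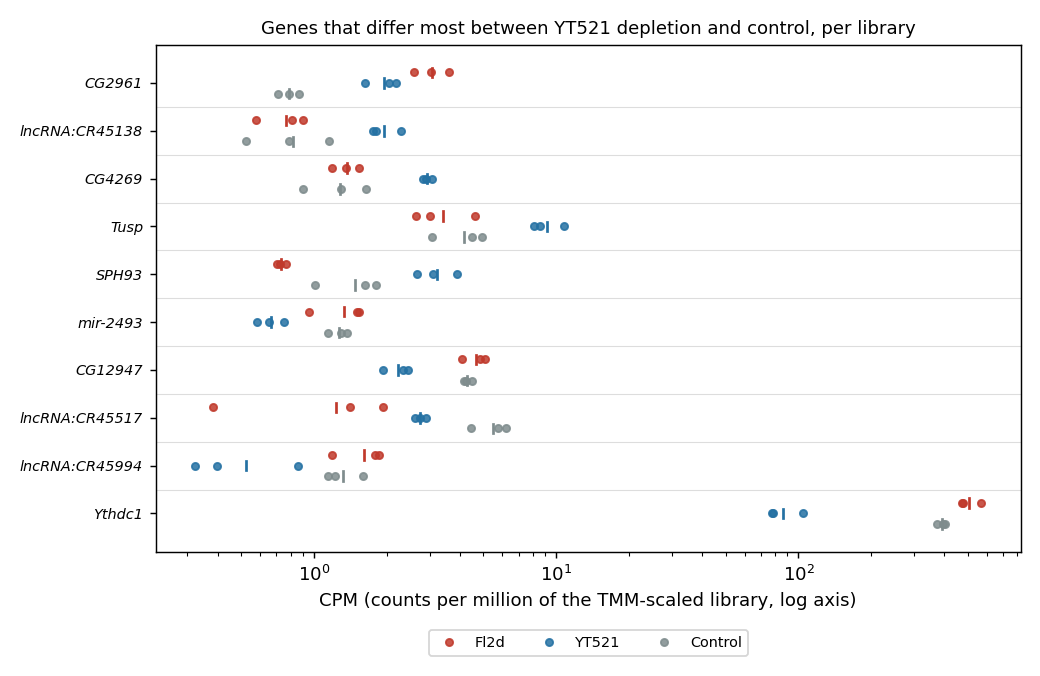
Levels of the 5 highest and 5 lowest genes of YT521 depletion against the control among those also called in the direct comparison, in CPM on a log axis, with 1 point per library and a bar at each group mean. Fl2d points lie with the control for CG4269, Tusp and CG12947, and SPH93 has Fl2d libraries under 1 CPM below the control and YT521 libraries from 2.65 to 3.91 CPM above it.

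Gene lists were described by how many of their tested members were called, read against the 20.2% higher and 18.9% lower among all genes. The proteasome, the protease that degrades ubiquitinated proteins, had the largest share of members called higher among the lists: 29 of 34 tested subunits were higher in Fl2d depletion and 0 were lower, with edgeR and with DESeq2 alike (28 and 0), and at an unadjusted p under 0.05 the counts were 33 and 0. The median difference was 0.199 against 0.005 over all genes. Rpn7, a lid subunit of the regulatory particle, lay at 681, 581 and 594 CPM in the Fl2d and 494, 505 and 484 CPM in the YT521 libraries (difference 0.32, adjusted p = 3.6e-05). The base subunit Rpn2 also differed by 0.32 and the catalytic subunit Prosbeta5 by 0.28, and the ATPase paralog Rpt3R, at 17 to 18.3 against 8.77 to 10.7 CPM, differed by 0.83 (adjusted p = 3.7e-06). As medians over the 34 subunits relative to the control mean, the Fl2d libraries lay at 0.316, 0.147 and 0.166 and the YT521 libraries at -0.024, 0.021 and -0.025, with Fl2d replicate 1 the highest. The count was 21 without both libraries low in mitochondrial rRNA and 19 without YT521 replicate 3, with 0 lower in each.

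Of 31 aminoacyl-tRNA synthetases, which charge tRNAs, 13 were higher and 0 lower (9 without both libraries), with a median of 0.135 and 1 lower at an unadjusted p under 0.05. ThrRS lay at 608, 553 and 556 CPM in Fl2d and 444, 464 and 445 CPM in YT521 depletion (difference 0.34, adjusted p = 4.01e-06), and GlyRS differed by 0.34 and AlaRS by 0.26. In the list for the unfolded protein response and the integrated stress response, 11 of 29 genes were higher and 3 lower, with a median of 0.027. The counts were 7 and 3 without both libraries, and 7 were higher without YT521 replicate 1. A fit of both groups alone gave 3 higher and 1 lower, and ERp60, named below, was then not called (adjusted p = 0.0542). Sil1, a nucleotide exchange factor for the endoplasmic reticulum chaperone BiP, lay at 102, 112 and 113 CPM against 83.4, 73.8 and 80.3 CPM (difference 0.46, adjusted p = 1.5e-07), and the disulphide isomerases CaBP1 (0.40) and ERp60 (0.25) were higher too. Thor, the translation inhibitor 4E-BP, was the lowest of the list at 25.7, 34.9 and 28.4 CPM against 58.2, 66.8 and 57 CPM, a difference of -1.03 (adjusted p = 1.23e-06).

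The 30 heat shock proteins and chaperones divided, with 9 higher and 10 lower in Fl2d depletion (6 and 10 without both libraries). CG11267, the homolog of the mitochondrial co-chaperonin Hsp10, was higher by 0.42 and Hsp110 by 0.33. The co-chaperone gene starvin (stv) was lower, at 2.39, 2.45 and 2.81 CPM against 5.18, 5.44 and 5.99 CPM (difference -1.12, adjusted p = 1.37e-07). Hsp70Bb lay at 0.43, 2.93 and 2.36 CPM against 7.55, 5.47 and 6.21 CPM (difference -1.75, adjusted p = 9.71e-05). It is among several near-identical inducible Hsp70 copies, and reads that align to several places were left out of the gene counts. Its lowest value was that of Fl2d replicate 1, and the groups did not overlap.

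Ribosomal and mitochondrial lists had called shares of 11.8% to 17.1%, against 39.0% of all genes. Of 79 cytosolic ribosomal proteins 9 were higher and 1 lower, with 5 higher without Fl2d replicate 1 or YT521 replicate 1, 14 without YT521 replicate 2, 18 without Fl2d replicate 3 and 6 without both libraries low in mitochondrial rRNA. Of the 9, 3 were the paralogs RpS5b, RpS19b and RpS10a. Mitochondrial ribosomal proteins gave 11 higher and 1 lower of 70, but 3 higher and 4 lower without both libraries low in mitochondrial rRNA. Without Fl2d replicate 1, YT521 replicate 1 or YT521 replicate 3 the higher count was 4, 5 and 6. A fit of both groups alone gave 1 higher and 1 lower for the mitochondrial and 4 higher and 0 lower for the cytosolic ribosomal proteins. The nuclear-encoded respiratory chain had 2 higher and 9 lower of 66, with 20 lower without Fl2d replicate 1 and 14 lower without both libraries. SdhA, of respiratory complex II, was lower by -0.25, while the cytochrome c1 paralog Cyt-c1L was higher by 1.17, at 6.26, 6.97 and 5.58 CPM against 3.18, 2.86 and 2.33 CPM.

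**Figure D3:**
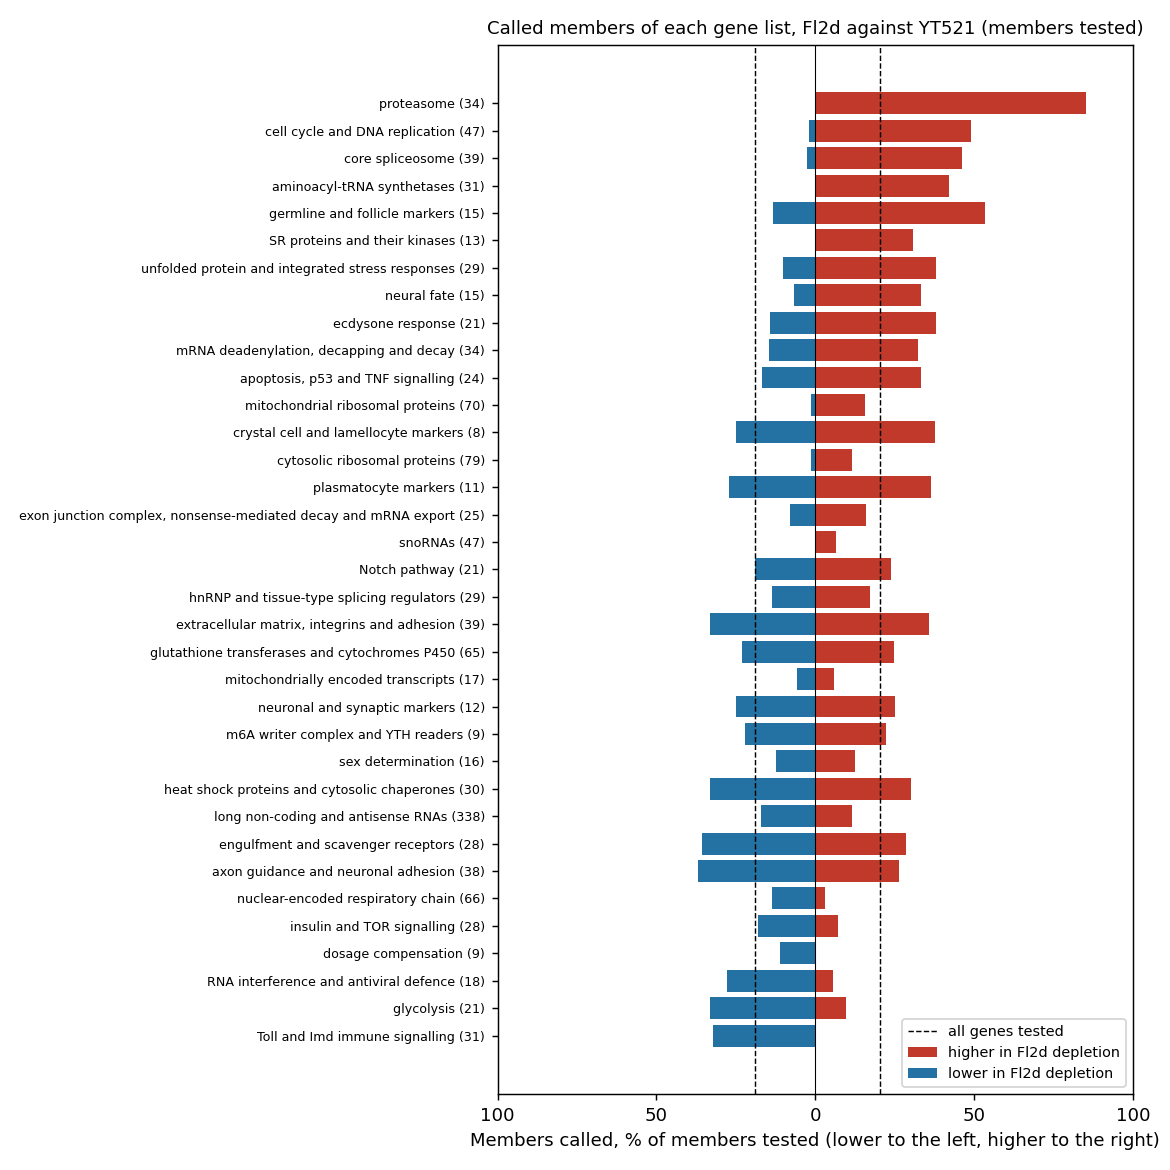
Share of the tested members of each gene list called higher (to the right) or lower (to the left) in Fl2d than in YT521 depletion, in % of the members tested, whose number stands in brackets. Dashed lines mark the 20.2% higher and 18.9% lower among all genes tested; the proteasome has 29 of 34 members higher, and Toll and Imd signalling has 10 of 31 lower and 0 higher.

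Core spliceosome genes were higher in Fl2d depletion, with 18 of 39 called higher and 1 lower and a median of 0.122. The tri-snRNP protein Prp31 had the largest difference, at 96.7, 88 and 92.6 CPM against 65.3, 70 and 66.5 CPM (0.46, SE 0.053, adjusted p = 8.92e-07). Prp6 (0.32) and Prp3 (0.26) of the same particle and Sf3b3 (0.31) of the branch-site binding complex were also higher. The count was 12 higher and 2 lower without both libraries low in mitochondrial rRNA, and the YT521 replicate 2 median over the 39 genes, 0.056, lay above that of Fl2d replicate 2, 0.052. SR proteins, which bind exonic splicing enhancers, were listed with their kinases. Of the 13 genes 4 were called higher and 0 lower with all libraries, RnpS1 among them by 0.32. The 4 included the kinase gene Srpk79D. The count for this list was 2 higher and 0 lower without Fl2d replicate 1 or without both libraries, 2 higher and 2 lower without YT521 replicate 2, and 0 of 13 in a fit of both groups alone. The hnRNP and tissue-type splicing regulators had 5 higher and 4 lower of 29, with 2 to 6 higher and 2 to 7 lower when 1 library was left out and 3 and 4 without both libraries: smooth (sm) was lower by -0.66 and the ELAV family gene Rbp9 higher by 0.76, at 10.5, 10.5 and 9.15 CPM against 5.27, 6.56 and 5.88 CPM.

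Among 34 genes of mRNA deadenylation, decapping and decay, 11 were higher and 5 lower (11 and 2 without both libraries, and 2 lower without Fl2d replicate 1 or YT521 replicate 3). Subunits and cofactors of the exosome, the 3′ to 5′ RNA nuclease complex, were among the higher genes. Csl4 lay at 38.9, 34.4 and 33.3 CPM against 26.4, 24.4 and 25.5 CPM (difference 0.48, adjusted p = 1.88e-06), and Ski6 (0.44) and the helicase Mtr4 (0.35) were higher too. The decapping enzyme DCP2 was lower, at 23.3, 35.3 and 36.8 CPM against 54.8, 49.4 and 55.5 CPM (difference -0.74, adjusted p = 2.17e-05). Genes of RNA interference had 1 higher and 5 lower of 18 (1 and 4 without both libraries). AGO1, the Argonaute of microRNAs, was lower by -0.46 and AGO3, of the piRNA pathway, by -0.84, while the piRNA helicase gene spn-E was higher by 0.63. AGO3 was uneven between libraries, at 18.7, 41.1 and 27.3 CPM against 59.4, 42.9 and 54 CPM. Exon junction, nonsense-mediated decay and export genes had 4 higher and 2 lower of 25, the export factor Nxt1 (0.33) and the export helicase Hel25E (0.23) among the higher. This list had 2 higher and 1 lower without YT521 replicate 2, 3 higher and 0 lower without both libraries, and 2 higher and 0 lower in a fit of both groups alone.

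Cell cycle and DNA replication genes were higher in Fl2d depletion for 23 of 47 members and lower for 1, with a median of 0.169. The count held with 22 higher and 0 lower without both libraries low in mitochondrial rRNA. The kinesin gene pavarotti (pav), needed for cytokinesis, lay at 153, 150 and 164 CPM against 120, 116 and 119 CPM (difference 0.40, SE 0.042, adjusted p = 2.19e-07). The ribonucleotide reductase subunit RnrL was higher by 0.36, the replicative helicase subunit Mcm5 by 0.32 and the transcription factor E2f1 by 0.26. Relative to the control mean, the medians over the list were 0.141, 0.038 and 0.093 in the Fl2d libraries and -0.092, -0.045 and -0.043 in the YT521 libraries. In their own comparisons with the control, Fl2d depletion had 17 higher and 1 lower of these genes (21.4% and 19.9% of all genes) and YT521 depletion 0 higher and 2 lower (3.27% and 3.25%). Apoptosis and TNF genes had 8 higher and 4 lower of 24 (8 and 5 without both libraries), with the TNF receptor gene wengen (wgn) higher by 0.56 at 38.1, 36.9 and 37.4 CPM against 24.1, 26.6 and 25.3 CPM, and the cell death gene reaper (rpr) lower by -0.75.

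**Figure D4:**
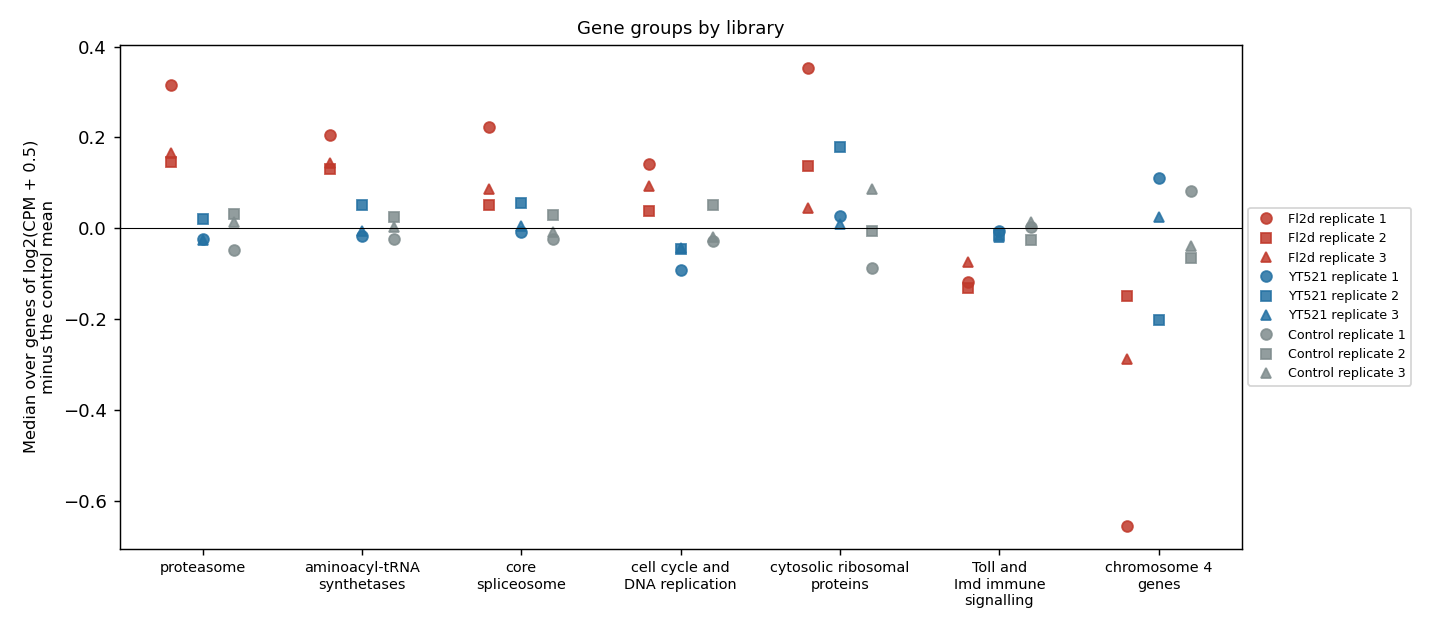
Median over the genes of 6 lists and of chromosome 4 of the difference in log2(CPM + 0.5) from the control mean, with 1 point per library and the symbol giving the replicate. Proteasome medians lie at 0.147 to 0.316 in the Fl2d and -0.025 to 0.021 in the YT521 libraries; for the spliceosome, the ribosomal proteins and chromosome 4, YT521 replicate 2 lies within the Fl2d range.

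Toll and Imd immune signalling genes were lower in Fl2d depletion for 10 of 31 members and higher for 0, with a median of -0.074. DESeq2 called 9 lower and 0 higher, and at an unadjusted p under 0.05 edgeR had 10 lower and 2 higher. The NF-kappaB factor dorsal (dl) lay at 49.6, 55.3 and 51.8 CPM against 76.3, 83.7 and 81.2 CPM, without overlap (difference -0.62, SE 0.051, adjusted p = 4.54e-09). Pellino (Pli), an adaptor of the Toll pathway, was lower by -0.78, the recognition protein PGRP-SA by -0.82 and the antimicrobial peptide cecropin A1 (CecA1), at 1.48, 1.35 and 1.81 CPM against 4.45, 3.81 and 4.92 CPM, by -1.51. For dl and PGRP-SA the YT521 libraries were also above the control, by 0.17 (adjusted p = 0.0459) and 0.42 (adjusted p = 0.0307). Without both libraries low in mitochondrial rRNA, 7 members were lower and 0 higher. Leaving out 1 library gave 7 to 9 lower, with 2 higher without Fl2d replicate 1 and 1 higher without Fl2d replicate 2 or YT521 replicate 3.

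Receptors of blood cells went in both directions. Of 28 engulfment and scavenger genes, 8 were higher and 10 lower in Fl2d depletion, with 5 higher without Fl2d replicate 3 or YT521 replicate 1, and 7 and 9 without both libraries. Pvr, the receptor of PDGF and VEGF-like factors, was high in Fl2d depletion at 714, 656 and 705 CPM and low in YT521 depletion at 404, 426 and 422 CPM (difference 0.73, SE 0.055, adjusted p = 1.37e-09). The control mean of 490 ± 29.5 CPM (SD, n = 3) lay between, and both differences from it passed the test (0.50 and -0.23). NimC4, a receptor for apoptotic cells, had the reverse order at 10.9, 9.03 and 8.19 CPM against 20.7, 22.6 and 22.6 CPM, a difference of -1.23 (adjusted p = 4.54e-09). The complement-like genes Tep4 (0.63) and Tep2 (-0.79) differed in opposite directions.

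Of 39 matrix and adhesion genes 27 were called (69.2%, against 39.0% of all genes), with 14 higher and 13 lower in Fl2d depletion (9 and 12 without both libraries). Papilin (Ppn), a matrix proteoglycan, lay at 25.5, 24.1 and 23.8 CPM against 12.1, 13.5 and 13.1 CPM (difference 0.92, adjusted p = 1.4e-09), and the beta integrin myospheroid (mys) was higher by 0.34. The metalloprotease Mmp1 was lower, at 35.5, 43 and 43.5 CPM against 71.1, 76.2 and 86.1 CPM (difference -0.94, adjusted p = 1.04e-06), and it was above the control by 0.58 in YT521 depletion (adjusted p = 0.0019). The axon guidance list had 10 higher and 14 lower of 38, with 6 higher without Fl2d replicate 3 or YT521 replicate 1, and 9 and 11 without both libraries. The guidance ligand slit (sli) was higher, at 126, 107 and 123 CPM against 58.8, 62.3 and 70.9 CPM (difference 0.89, adjusted p = 1.97e-07), and it was above the control in both depletions (1.26 and 0.37).

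Developmental lists went in both directions. Neural fate genes had 5 higher and 1 lower of 15 (4 and 1 without both libraries), with bab1, a BTB transcription factor, at 4.92, 6.01 and 5.28 CPM in Fl2d and 1.63, 1.88 and 1.87 CPM in YT521 depletion (difference 1.58, adjusted p = 9.26e-08). The ETS factor gene pointed (pnt) was higher by 0.37. Notch pathway genes had 5 higher and 4 lower of 21, and 2 to 7 higher when 1 library was left out (4 and 4 without both libraries). Of the enzymes that glycosylate Notch, O-fut1 was lower by -0.48 and rumi higher by 0.55. Ecdysone response genes had 8 higher and 3 lower of 21 (6 and 2 without both libraries): the ecdysone importer Oatp74D was higher by 0.40 and the chromatin remodeller Mi-2 by 0.54. Eip93F, an ecdysone-induced transcription factor, was low in Fl2d depletion at 1.82, 3.65 and 3.47 CPM and high in YT521 depletion at 10.4, 6.89 and 12.7 CPM (difference -1.74, adjusted p = 2.83e-05), on either side of the control mean of 5 ± 0.69 CPM (SD, n = 3).

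Metabolic genes also went in both directions. Glycolysis had 2 higher and 7 lower of 21 (2 and 6 without both libraries): fructose bisphosphatase (fbp), of gluconeogenesis, was lower by -0.82, at 11.9, 10.1 and 10.8 CPM against 21.1, 19.2 and 17.8 CPM, and phosphoglycerate mutase Pglym78 by -0.43. The bifunctional regulator Pfrx and the gluconeogenic enzyme Pepck2 were higher by 0.48 each. Insulin and TOR signalling had 2 higher and 5 lower of 28 (9 lower without Fl2d replicate 3, 2 and 3 without both libraries), the insulin-like peptide Ilp6 lower by -0.64. Glutathione transferases and cytochromes P450 were even, at 16 higher and 15 lower of 65 (13 and 16 without both libraries), with GstT3 lower by -0.95 and GstO1 higher by 0.58.

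Of 16 tested sex determination genes 2 were higher and 2 lower (1 and 3 without both libraries). Unr, an RNA-binding protein that represses msl-2 translation, was lowest, at 76.8, 104 and 92.5 CPM against 175, 162 and 187 CPM (difference -0.94, adjusted p = 6.88e-06), and fruitless (fru) was higher by 0.28. Sxl, chosen after its values were seen, lay at 6.07, 9.18 and 7.19 CPM in Fl2d and 8.9, 6.63 and 8.79 CPM in YT521 depletion, overlapping groups whose difference of -0.11 did not pass the test (adjusted p = 0.535). It was below the control in each, by -0.61 (adjusted p = 0.000968) and -0.49 (adjusted p = 0.0206). Gene counts hold no splice forms, so isoforms of Sxl were not analysed here. Of 9 dosage compensation genes, the helicase gene mle was lower by -0.20 and the others were not called with all libraries, with a median of -0.106. The count lower was 4 without Fl2d replicate 2, Fl2d replicate 3 or YT521 replicate 2, and 1 without both libraries.

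Markers of other cell types were mixed. Plasmatocyte markers had 4 higher and 3 lower of 11 (2 and 2 without both libraries), among them peroxidasin (Pxn) higher by 0.41 and frizzled (fz), which distinguishes S2R+ from S2 cells, lower by -0.89. Germline and follicle genes had 8 higher and 2 lower of 15 (7 and 2 without both libraries): bgcn, a translational repressor partner of bam, lay at 7.79, 8.31 and 6.48 CPM in Fl2d and 3.1, 2.43 and 1.97 CPM in YT521 depletion (difference 1.6, adjusted p = 7.96e-08). The summed level of all 19 genes of this list, 4 of them not tested, was 490 to 541 CPM in the Fl2d and 474 to 476 CPM in the YT521 libraries. Neuronal genes gave 3 higher and 3 lower of 12, crystal cell and lamellocyte genes 3 and 2 of 8, muscle genes 0 and 2 of 7, and fat body and gut genes 0 and 0 of 4, where Apoltp and GATAe differed by 0.01 and 0.02. The fat body and gut counts were also 0 with DESeq2 and at an unadjusted p under 0.05. Their part in the other differences was not tested.

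Of 338 long and antisense RNAs tested 39 were higher and 58 lower in Fl2d depletion (28.7% called, against 39.0% of all genes), and 33 and 48 without both libraries low in mitochondrial rRNA. Of 47 snoRNAs 3 were higher and 0 lower (6.38%), DESeq2 called 1, and 5 were higher at an unadjusted p under 0.05. The antisense gene asRNA:CR45195 lay at 33.6, 33.2 and 30 CPM against 17.6, 19.2 and 17.6 CPM (difference 0.83, adjusted p = 2.06e-08). Lower ones included lncRNA:CR44526 (-0.84) and lncRNA:CR44043 (-1.62). Mature snoRNAs lack poly(A) tails, and their counts here were few, as none of the 3 called ones exceeded 1.78 CPM in a library.

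Genes of chromosome 4, the small and largely heterochromatic chromosome, were mostly lower in Fl2d depletion. Of 83 tested genes, 40 (48.2%) were lower and 1, CG11076, was higher in Fl2d depletion, against 16.5% to 20.3% lower on the other arms. The median difference was -0.37, against -0.002 to 0.028 on the other arms. The gene anne lay at 25.2, 46.6 and 40 CPM in Fl2d and 66.7, 53.6 and 63.8 CPM in YT521 depletion, and Mitf, a transcription factor of lysosomal genes, at 8.99, 15.3 and 13.7 CPM against 19.1, 17.6 and 20 CPM. In both genes the groups did not overlap and Fl2d replicate 1 was the lowest.

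The shift varied between libraries. Medians over the 83 genes relative to the control mean were -0.655, -0.149 and -0.287 in the Fl2d libraries and 0.11, -0.201 and 0.026 in the YT521 libraries, so YT521 replicate 2 overlapped the Fl2d libraries. Without Fl2d replicate 1 the count lower was 19 with a median of -0.20, without YT521 replicate 1 it was 26, and without both libraries low in mitochondrial rRNA it was 33 with a median of -0.28. Pof, the protein that coats chromosome 4, was looked up after its values were seen. Its transcript lay at 24.8, 25 and 25.6 CPM in Fl2d and 25.3, 27.9 and 27.1 CPM in YT521 depletion, a difference of -0.09 that did not pass the test (adjusted p = 0.238).

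**Figure D5:**
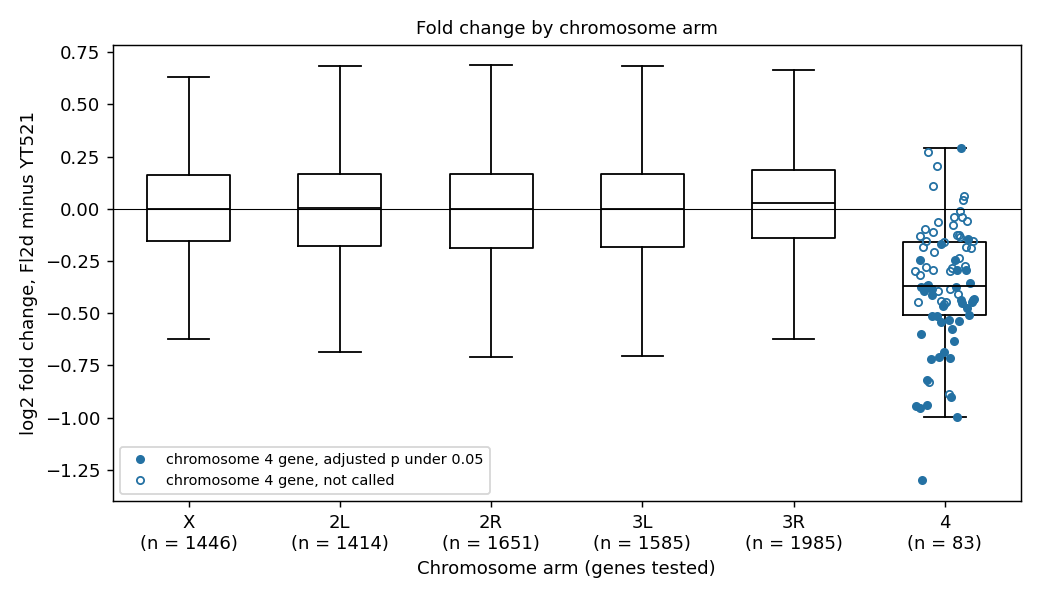
log2 fold change of Fl2d minus YT521 depletion for all genes tested on each chromosome arm; boxes hold the quartiles with the median as a line, whiskers reach up to 1.5 times the box height, values beyond them are not drawn as boxplot points, and chromosome 4 genes are drawn as points, filled where called. The chromosome 4 median lies at -0.37 and those of the other arms between -0.002 and 0.028.

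Protein-coding genes without introns were called lower in 14.3% of cases, those with 1 to 2 introns in 16.6%, with 3 to 5 in 19% and with 6 or more in 25.3%. The medians ran from 0.025 to -0.033 over these classes, but without both libraries low in mitochondrial rRNA they were -0.006 for genes without introns and -0.007 for those with 6 or more. The counts lower were then 107 of 739, 440 of 2758, 402 of 2470 and 336 of 1761 from the class without introns to that with 6 or more. Of the tested genes with an annotation entry 42.2% overlap another gene. Whether the counting used strand is not stated by the labels, so reads of overlapping genes cannot be told apart; among genes with values above this concerns AdamTS-B, Cyp6d2, axo, Tusp, CG4269, CG12947, mael, Mmp1, Nrt, AGO1, Pxn, Rbp9, Mi-2, rumi, Ski6, Nxt1, SdhA, Pfrx, Pglym78, Tep2, ERp60, E2f1, RnpS1, Sf3b3, Prp3, Prp6, Prp31, Rpn7, Rpt3R, Prosbeta5, Obp44a, vir, Mettl14, lncRNA:CR43963 and asRNA:CR45195.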

How the data were processed

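The deposited files hold raw read counts per gene, 1 table per library, with 17558 gene IDs. Build BDGP6 and the tools STAR 2.4.0h, CASAVA 1.8.4, DESeq2 1.6.3 and HTSeq 0.6.1 are named in the submitters' processing notes. Groups came from the sample titles. All 21 libraries entered a single quasi-likelihood fit in edgeR 4.0.16 (R 4.3.3) with a mean per group, TMM scaling and filterByExpr at a minimum count of 10, which left 8360 genes and 14 residual degrees of freedom. A gene was called at a Benjamini-Hochberg adjusted p under 0.05 over all genes tested. Every adjusted p printed is from this fit unless an alternative or a library left out is named with it. Summary lines that name no gene stayed out. At the median depth of 22126193 counts, 1 CPM rests on about 22.1 counts, and reads carried no molecular identifiers. The step was tested on simulated data. Library medians used log2(CPM + 0.5).

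Symbols, chromosomes, coordinates, introns and overlaps came from Ensembl release 115 for BDGP6.54, where 17252 IDs had an entry. The members and gene lists were chosen with earlier results of these data known. Named genes were the 5 targets, the 10 highest and 10 lowest called genes without overlap at a mean of at least 1 CPM, the 5 highest and 5 lowest of YT521 depletion among genes called in both comparisons, and up to 4 called members per list with the smallest p, part of which are given. Genes of chromosome 4, Sxl and Pof are named beyond this rule, after their values were seen. Alternatives were RLE scaling, DESeq2 1.42.0, no filter, both groups alone, a replicate block, a correction for gene length, no mitochondrial genes, and leaving out libraries. Promoter motifs and sequences were not analysed here.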

Additional observations from a re-analysis of the deposited data

How the results depend on the processing

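Of the 160 named genes 156 were called in the direct comparison, 133 of them in every alternative. Most named genes were picked because they were called, so the first count was given by the choice. The alternatives refit the same counts and are no independent check. Over 2238 pairs of a named gene and an alternative 75 lost the call and 0 changed direction. The direct comparison moved most when fitted on both groups alone, with 946 genes higher, 935 lower and 1881 in all, of 8124 tested. A separate fit of the Fl2d and Control libraries alone had 1051 genes above the control in Fl2d depletion and 2224 called in all, of 8046 tested. The low count filter, RLE scaling, DESeq2 and the length correction kept the direct count within 1.5 times. With 1 library left out, the direct comparison gave 1341 to 1663 higher, 1369 to 1618 lower and 2710 to 3280 in all. YT521 depletion against the control gave 132 to 255 higher, 111 to 237 lower and 243 to 492 in all, the lowest without Control replicate 2. Fl2d depletion against the control gave 2791 to 3457. The labels do not tie replicate numbers across groups. Deviations from the group means had correlations of -0.235, -0.179 and 0.193 between same-numbered Fl2d and YT521 libraries. The value was 0.344 for Fl2d replicate 1 and YT521 replicate 2, both low in mitochondrial rRNA. These correlations therefore cannot show whether the numbers pair the libraries. With the replicate block 1748 genes were higher and 1671 lower in the direct comparison. YT521 depletion against the control then had 738 called genes, against 545 without the block. Counts for the lists moved by over 1.5 times in 173 of 1034 pairs of a list count and an alternative. On both groups alone the proteasome had 15 higher, the core spliceosome 5 and chromosome 4 had 19 lower. Depth limits genes near 1 CPM, where a library holds about 22.1 counts.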
